A study of Mus musculus with 20 samples.

Results

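This report follows 10 transcription factor genes that set the course of CD8 T cells between effector and memory fates: Tcf7, Runx3, Tbx21, Batf, Irf4, Irf8, Nfatc2, Zeb2, Prdm1 and Eomes. They were chosen by gene name, and each was found as 1 row among the 20586 rows of a table of read counts per 3′ UTR, of which 16117 could be given a gene symbol. The table comes from RNA immunoprecipitation sequencing (RIP-seq), in which mRNAs that travel with a protein are pulled down with an antibody, here one made against CPEB4 in the submitters' laboratory. CPEB4 binds cytoplasmic polyadenylation elements, short motifs in the 3′ UTRs of mRNAs, and regulates their poly(A) tails and translation. The design asks which mRNAs it holds in activated CD8 T cells. All groups were CD8 T cells from spleen and lymph nodes of C57BL/6 mice, activated for 48 h with anti-CD3 (1 μg/ml), anti-CD28 (1 μg/ml) and IL-2 (20 ng/ml).

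The groups were the immunoprecipitate of Cpeb4 knockout cells (KO IP), that of wild-type cells (WT IP), total RNA of knockout cells before precipitation (KO input) and total RNA of wild-type cells (WT input). Inputs were poly(A) selected and amplified for 12 PCR cycles, whereas IP RNA was not selected and was amplified for 7 cycles. The labels name 3 experiments, D1, D3 and RIP8, and do not say which part of Cpeb4 the knockout allele removes. They also leave unsaid whether the experiments used different mice, and the p-values cover the spread between these libraries alone, which may be technical. The values below come from 9 sequencing runs of 6 libraries, whose counts match their row names: KO IP D1 (2 runs), WT IP D1 (2 runs), KO input D1, KO input RIP8, WT input D1 and WT input RIP8 (2 runs). The other 11 runs were not used, because their counts are out of register with the row names.

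T cell receptor signals reach the nucleus through NFAT, AP-1 and IRF factors. BATF, IRF4 and NFATC2 act early on this route and open the programme of the dividing effector cell. T-BET (Tbx21), ZEB2 and BLIMP-1 (Prdm1) then push cells toward terminal effectors, while TCF-1 (Tcf7) and EOMES are tied to cells that keep the capacity for memory. RUNX3 holds the CD8 lineage and its cytotoxic programme throughout.

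Some runs went against their labels, and each level below is that of the run so labelled. Without the row of Lars2, the gene of mitochondrial leucyl-tRNA synthetase, total counts per run lay between 192134 and 4085902. That row held 34.8% to 50.1% of the counts in 5 shallow runs and 1.16% to 5.40% in 4 deep ones, so it was left out of every total. The runs labelled WT IP D1 batch 2, KO input D1 and WT input D1, which belong to 3 groups, differed from each other by little more than sampling noise (chi-square per degree of freedom 1.05 to 1.12 over all rows with at least 20 summed counts). Runs named for 1 library differed far more, with 31.7 to 58.7. The run labelled KO IP D1 batch 3 came closest to WT input RIP8 batch 2 (3.09), and KO input RIP8 to WT input RIP8 batch 1 (1.39). Cpeb4 itself had 16.2 and 47.1 counts per 1000000 (CPM, Lars2 left out) in the KO IP runs, against 123 and 12.0 CPM in the WT IP runs. It had 110 and 126 CPM in the KO inputs, against 125, 195 and 34.3 CPM in the WT input runs. The UTR counted may lie outside the deleted part, so these levels do not test the label.

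Summed markers of CD8 T cells exceeded those of every other list checked, but Cd3e, Cd3g, Cd3d and Thy1 are shared by all T cells. With Cd4 itself unnamed, the sums do not separate CD8 from CD4 T cells. Summed over 6 of 6 T cell markers (Cd8a, Cd8b1, Cd3e, Cd3g, Cd3d and Thy1), levels were 4862 to 4944.9 CPM in KO IP, 2186 to 3396 CPM in WT IP, 2179 to 2554 CPM in KO input and 2077 to 5161 CPM in WT input. B cell markers, 7 of 8 named and Pax5 at 0 throughout, summed to at most 79.0 CPM, and myeloid markers, 6 of 7 named and Adgre1 and Cd14 at 0, to at most 105 CPM. CD4 T cell markers summed to at most 167 CPM (5 of 6 named, without Cd4 itself, and Il4 at 0), NK cell markers to at most 78.4 CPM (6 of 6 named), and erythroid and platelet markers to at most 15.6 CPM (4 of 5 named, Hbb-bs and Pf4 at 0). In bulk RNA, fewer cells of a kind cannot be told apart from less RNA per cell.

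Tcf7 encodes TCF-1, the HMG-box factor of stem-like and memory T cells. It was counted in the row of ENSMUST00000086844, with a UTR start of 52252371 on chromosome 11 (mm10, the build of all positions here). A UTR start in this report is the coordinate in the row name. No strand, UTR end or sequence was given, so that coordinate need not be where the UTR begins in the transcript. Tcf7 had 1057 and 532 CPM in the KO IP runs, against 316 and 562 CPM in the WT IP runs. It had 440 and 235 CPM in the KO inputs, against 422, 350 and 522 CPM in the WT input runs. The run labelled KO IP D1 batch 2 stood above all others, with a 95% Poisson interval of 1025 to 1090 CPM, and the other KO IP run lay within the range of WT IP. The Tcf7 UTR was thus well represented in every run 48 h into activation, with 64 to 4057 counts.

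Eomes encodes the T-box factor that supports memory and cytotoxic genes (ENSMUST00000035020, chromosome 9, UTR start 118485013). Its level was among the steadiest: 155 and 75.1 CPM in the KO IP runs against 83.9 and 84.4 CPM in the WT IP runs, and 94.97 and 66.6 CPM in the KO inputs against 93.7, 75.6 and 91.3 CPM in the WT input runs. KO IP D1 batch 2 was again the highest, and its interval (143 to 168 CPM) lay above those of all runs except both D1 inputs, which reached into it.

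Tbx21 encodes T-BET, the T-box factor that drives the effector programme (ENSMUST00000001484, chromosome 11, UTR start 97098071). Tbx21 had 119 and 39.0 CPM in the KO IP runs, against 69.1 and 55.4 CPM in the WT IP runs. It had 75.0 and 49.0 CPM in the KO inputs, against 115, 25.2 and 38.7 CPM in the WT input runs. WT input D1, at 115 CPM, rested on 22 counts, with an interval of 71.8 to 173 CPM. The KO and WT groups overlapped in both the IP and the input runs.

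Zeb2 encodes a zinc finger repressor that acts with T-BET in terminal effectors (ENSMUST00000068415, chromosome 2, UTR start 44983634). It was the scarcest of the 10 in counts, with at most 47 in any run. Zeb2 had 8.60 and 0.812 CPM in the KO IP runs against 54.3 and 11.8 CPM in the WT IP runs, and 55.0 and 0 CPM in the KO inputs against 31.2, 3.15 and 0.490 CPM in the WT input runs. The 3 runs above 30 CPM were the 3 whose counts differed by little more than sampling noise over all rows, so they cannot be read as 3 independent observations. In KO input RIP8, 0 counts allow a level of up to 12.9 CPM by the Poisson interval. CD4 T cell markers were also highest in these 3 runs, at 138 CPM in WT IP D1 batch 2, 150 CPM in KO input D1 and 167 CPM in WT input D1, against 60.1 to 118 CPM in the other 6. Within that list Zbtb7b, a CD4 lineage factor, was at 79.0 to 109 CPM in the 3 runs and 25.7 to 73.0 CPM in the others, whereas Foxp3, the regulatory T cell factor, was highest in KO input RIP8 (66.6 CPM), where Zeb2 was at 0. B cell markers were at 79.0, 75.0 and 52.0 CPM in the same 3 runs, against 15.8 to 56.5 CPM in the others. Of these, Cr2 and Cd79a made up most of the sum in the 3 runs, and Cd79b was at 0 to 5.20 CPM there, against 0 to 33.3 CPM in the others. The part of other cells in the Zeb2 level was not tested.

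Prdm1 encodes BLIMP-1, a transcriptional repressor that drives terminal differentiation of T and B cells (ENSMUST00000039174, chromosome 10, UTR start 44437177). Prdm1 had 42.2 and 56.4 CPM in the KO IP runs against 104 and 32.8 CPM in the WT IP runs, and 30.0 and 73.6 CPM in the KO inputs against 72.9, 94.5 and 67.5 CPM in the WT input runs. KO input D1 was the lowest, on 6 counts, and its interval of 11.01 to 65.3 CPM overlapped that of WT input D1 (39.8 to 122 CPM).

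Runx3 encodes the Runt-domain factor that silences Cd4 and sustains the cytotoxic lineage (ENSMUST00000056977, chromosome 4, UTR start 135175833). Runx3 had 1502 and 938 CPM in the KO IP runs, against 1081 and 1896 CPM in the WT IP runs. It had 1090 and 1026 CPM in the KO inputs, against 973, 901 and 844 CPM in the WT input runs. In the inputs both KO runs were above all 3 WT runs. Their intervals (950 to 1244 and 912 to 1151 CPM) lay above that of WT input RIP8 batch 2 (816 to 872 CPM) and overlapped those of both shallow WT input runs. The share of all rows whose KO and WT input runs separate in this way was not counted. WT IP D1 batch 3 (1853 to 1939 CPM) and KO IP D1 batch 2 (1464 to 1542 CPM) stood clear of every other run, and these are 1 run of each genotype.

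**Figure D1:**
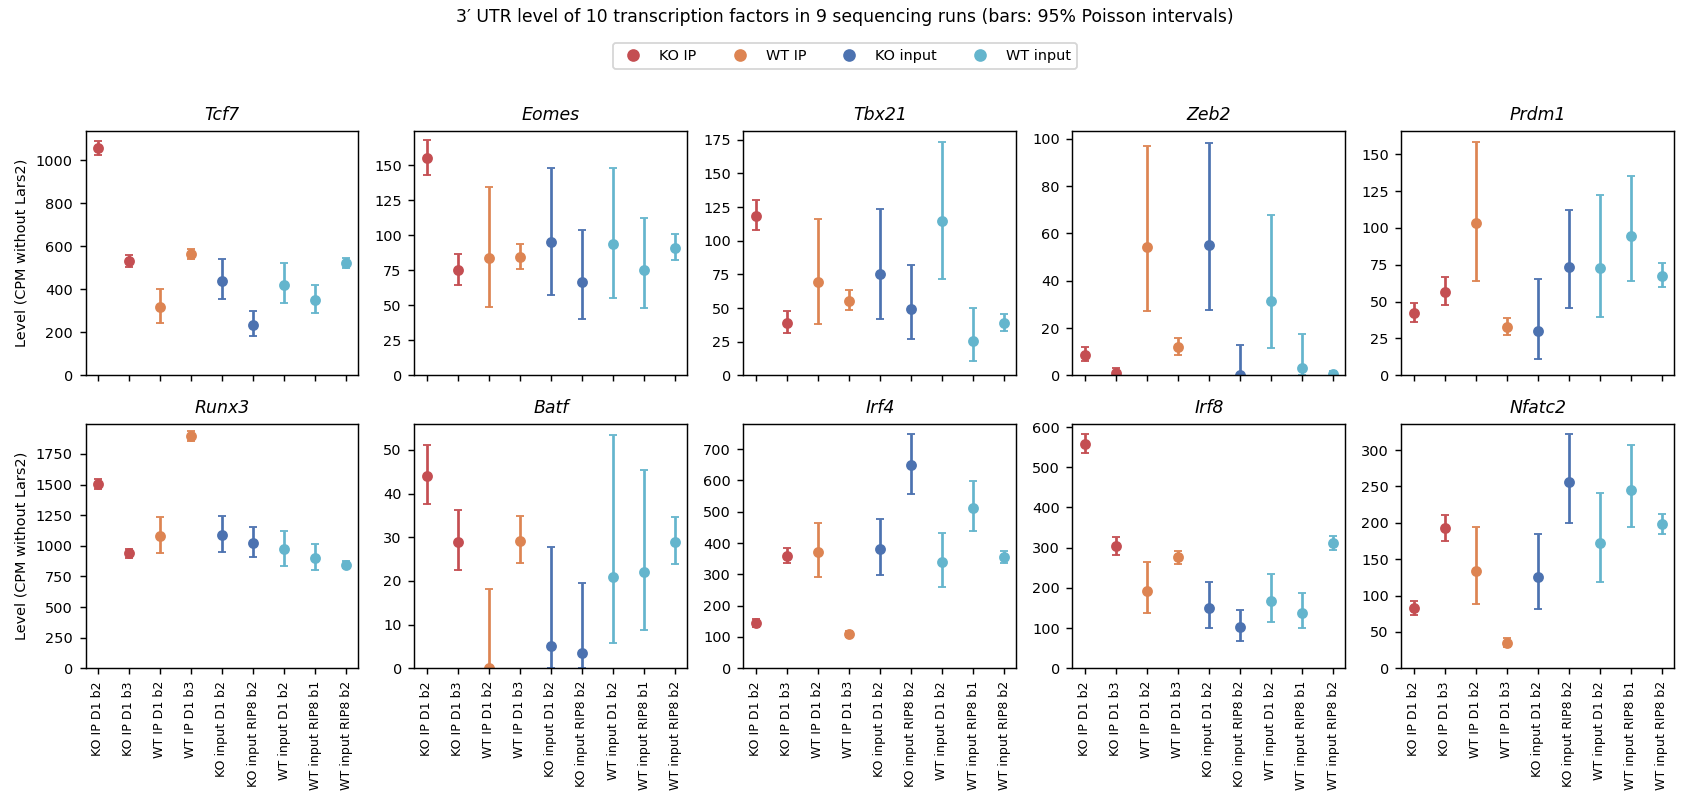
Level of each gene (y axis, CPM without the Lars2 row) in each of 9 runs (x axis, b for batch), coloured by group, with 95% Poisson intervals as bars. Irf4 and Nfatc2 are low, and Runx3 high, in KO IP D1 b2 and WT IP D1 b3, while Eomes lies between 66.6 and 155 CPM in all runs.

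Among the factors of the T cell receptor route, Batf encodes the AP-1 partner that binds DNA together with IRF4 (ENSMUST00000040536, chromosome 12, UTR start 85708753). Batf had 44.0 and 28.8 CPM in the KO IP runs, against 0 and 29.1 CPM in the WT IP runs. It had 5.00 and 3.503 CPM in the KO inputs, against 20.8, 22.1 and 28.9 CPM in the WT input runs. Both KO inputs lay below all WT input runs, but each held 1 count, and the share of all rows ordered so was not counted. Pooled over libraries, Batf had 2 counts in KO input and 129 in WT input, a ratio of levels of 0.147 (KO over WT) with an exact interval of 0.0176 to 0.541 that covers counting error only. This pooled ratio was computed for Batf alone. Of the 129 counts, 118 came from the deep run WT input RIP8 batch 2, whereas both KO inputs are shallow. In this ratio, genotype cannot be told apart from depth. The shallow WT input runs held 4 and 7 counts. The 0 counts in WT IP D1 batch 2 allow a level of up to 18.2 CPM.

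Irf4 encodes the factor that rises with the strength of the T cell receptor signal (ENSMUST00000021784, chromosome 13, UTR start 30763668). Irf4 had 145 and 360 CPM in the KO IP runs, against 370 and 109 CPM in the WT IP runs. It had 380 and 648 CPM in the KO inputs, against 338, 514 and 354 CPM in the WT input runs. Each IP group therefore held 1 run at the level of the inputs and 1 run well below it. The low IP runs had intervals of 133 to 157 CPM (KO) and 98.8 to 119 CPM (WT), clear of all other runs.

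Nfatc2 encodes NFAT1, the calcium-driven factor that calcineurin sends to the nucleus (ENSMUST00000109184, chromosome 2, UTR start 168476410). Nfatc2 had 82.6 and 192 CPM in the KO IP runs, against 133 and 34.8 CPM in the WT IP runs. It had 125 and 256 CPM in the KO inputs, against 172, 246 and 198 CPM in the WT input runs. The order of runs resembled that of Irf4, with WT IP D1 batch 3 lowest (interval 29.3 to 41.1 CPM) and KO IP D1 batch 2 next.

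Irf8, best known from myeloid and B cells and also induced in effector CD8 T cells, was counted in the row of ENSMUST00000047737 (chromosome 8, UTR start 120755176). Irf8 had 558 and 303 CPM in the KO IP runs, against 192 and 276 CPM in the WT IP runs. It had 150 and 102 CPM in the KO inputs, against 167, 139 and 311 CPM in the WT input runs. Both KO IP runs were above both WT IP runs, although the intervals of KO IP D1 batch 3 (282 to 326 CPM) and WT IP D1 batch 3 (260 to 292 CPM) overlapped. The share of all rows with such an order was not counted. Irf8 was at or above 276 CPM in the 4 deep runs and at or below 192 CPM in the 5 shallow ones. Myeloid markers lay at 83.6 to 105 CPM in the deep runs and at 15.8 to 74.0 CPM in the shallow ones, and their part in the Irf8 level was not tested. That split came mainly from Cst3 (47.9 to 74.7 CPM in the deep runs and 0 to 14.8 CPM in the shallow ones), which many cell types express. Csf1r (17.3 to 37.7 and 9.45 to 30.0 CPM) and Itgam (1.22 to 10.3 and 3.503 to 24.7 CPM) overlapped between them. Of these markers, the macrophage gene Adgre1 and the monocyte gene Cd14 were at 0 in all 9 runs.

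The genes did not vary alike. The standard deviation of log2(CPM + 1) over the 9 runs was 0.34 for Eomes and 0.38 for Runx3, and 93.1% and 91.6% of rows with a similar mean count (within a factor of 2) varied more. It was 2.25 for Zeb2 and 1.80 for Batf, with 2.08% and 10.6% of such rows varying more. The other 6 genes lay between 0.61 and 0.90, with 38.8% to 68.4% of such rows varying more. When the 9 runs were ordered by level, 8 of 8 neighbouring pairs had overlapping intervals for Tbx21, Zeb2, Prdm1 and Eomes, 7 of 8 for Tcf7, Batf, Irf8 and Nfatc2, and 6 of 8 for Runx3 and Irf4.

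Irf4 and Nfatc2 followed each other, and both ran against Runx3. Pearson's r over the 9 runs, on log2(CPM + 1), was 0.93 for Irf4 with Nfatc2, −0.87 for Irf4 with Runx3 and −0.94 for Nfatc2 with Runx3. Tcf7 ran with Irf8 (0.92) and Eomes (0.84) and against Irf4 (−0.79). These are descriptions over 9 runs of 6 libraries that share depth classes and, in 3 of them, nearly the same counts. The pairs named are the strongest among the members, and no background of other row pairs was computed. Within a run, the count ratio of Irf4 over Runx3 was 0.0963 and 0.384 in the KO IP runs, against 0.342 and 0.0574 in the WT IP runs. The ratio was 0.349 and 0.631 in the KO inputs, against 0.348, 0.570 and 0.420 in the WT input runs. These ratios do not depend on how totals are scaled, and the 2 low IP runs stayed apart, with exact intervals of 0.0881 to 0.105 and 0.0520 to 0.0632.

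The ratio of Nfatc2 over Runx3 showed the same 2 low runs, at 0.0550 in the run labelled KO IP D1 batch 2, against 0.0184 in the WT IP run of batch 3. The other 7 runs lay between 0.115 and 0.273. Irf4 over Nfatc2, in contrast, stayed between 1.75 and 3.12 in all runs. Tcf7 over Tbx21, which sets a memory factor against an effector factor, was 8.92 and 13.6 in the KO IP runs, against 4.57 and 10.1 in the WT IP runs. It was 5.87 and 4.79 in the KO inputs, against 3.68, 13.9 and 13.5 in the WT input runs. The WT input runs thus spanned both KO inputs, and the ratio of the run labelled WT input RIP8 batch 1 rested on 8 counts of Tbx21 (interval 6.80 to 32.9).

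**Figure D2:**
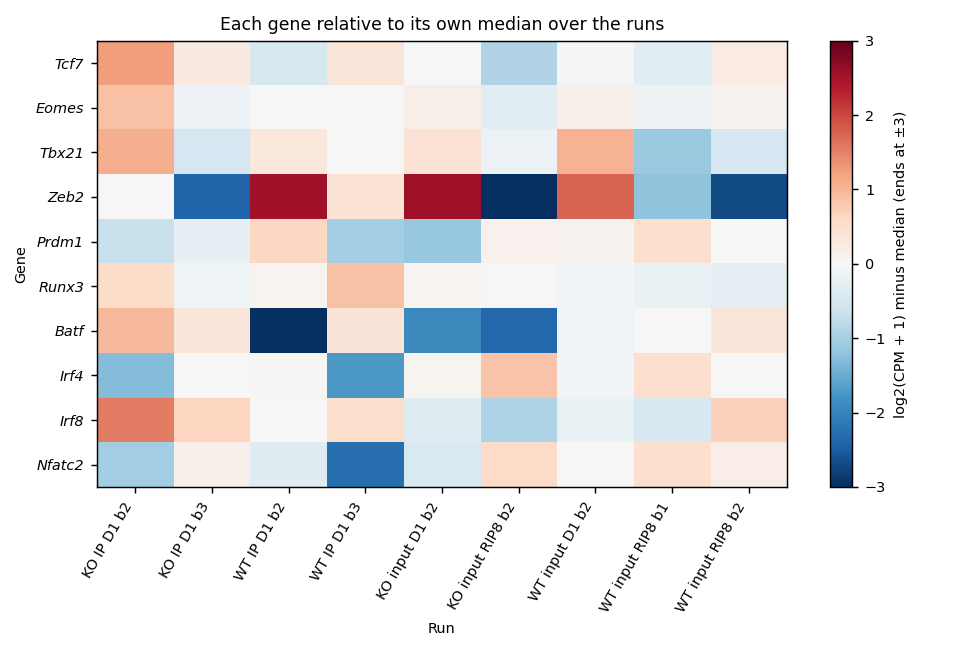
Colour gives log2(CPM + 1) of each gene (rows) in each run (columns) minus that gene's median over the 9 runs, red for higher and blue for lower. Irf4 and Nfatc2 are blue and Runx3 red in KO IP D1 b2 and WT IP D1 b3, and Zeb2 is red in the 3 runs of nearly equal counts; the darkest Batf and Zeb2 cells are runs with 0 counts.

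**Figure D3:**
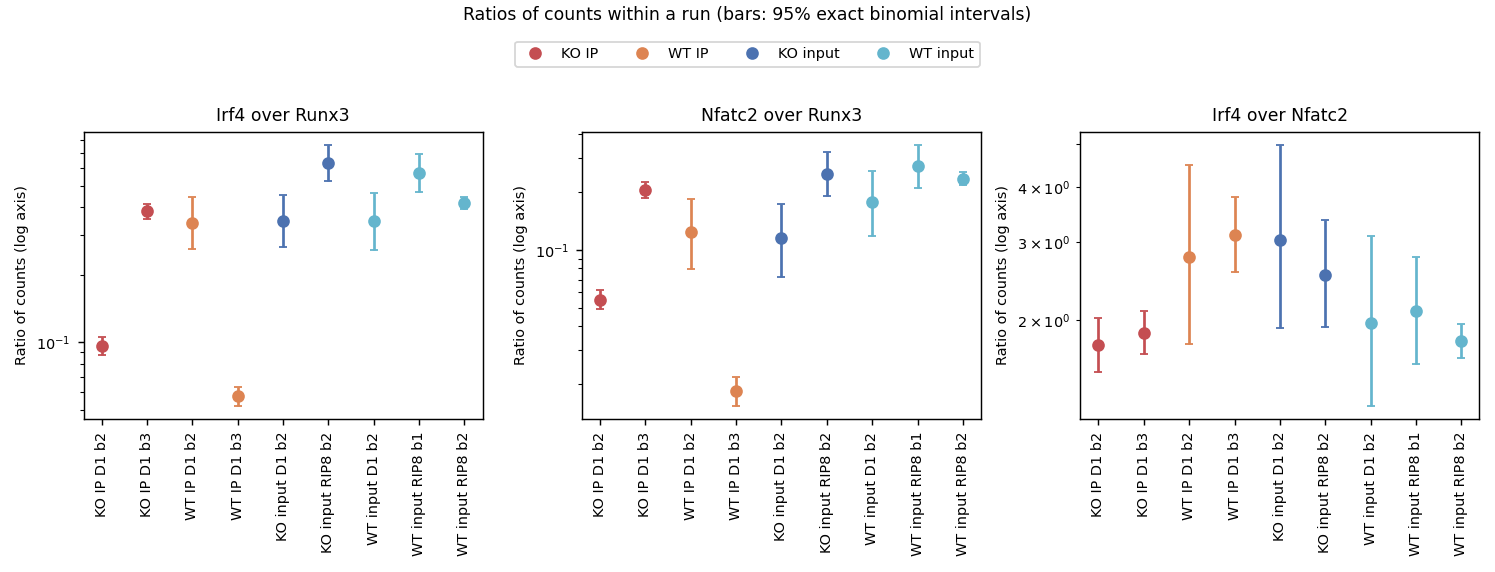
Ratio of counts of 2 genes within a run (log axis) for each run, coloured by group, with 95% exact binomial intervals. Irf4 over Runx3 and Nfatc2 over Runx3 are lowest in 1 KO IP run and 1 WT IP run, while Irf4 over Nfatc2 lies between 1.75 and 3.12 throughout.

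The genes whose profile over the runs was most like that of the 3 best-covered members were found among 6874 named rows with a mean count of at least 20. For Runx3 they were Abcd4 (r = 0.96), Tnrc6a, a partner of Argonaute in miRNA silencing (0.96), and Nicn1 (0.96). For Tcf7 they were Tmie (0.96), Mpdu1 (0.95) and the interferon-inducible GTPase gene Ifi47 (0.95). For Irf8 they were Pgd, an enzyme of the pentose phosphate pathway (0.97), Parp4 (0.96) and Serpinb6b (0.96). These are the highest values among the 6874 rows, over 9 runs that share depth classes and of which 3 have nearly the same counts. No background for such highest values was computed, and shared regulation was not tested.

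The comparison of KO IP with WT IP asks which mRNAs lose precipitation when CPEB4 is absent, so an mRNA held by CPEB4 would lie below 0. Runs of a library were summed, and edgeR's quasi-likelihood test was fitted to all 6 libraries and adjusted by Benjamini-Hochberg over 11496 rows, among them all 10 genes. The summed runs were not alike (31.7 to 58.7, as above), and deep runs dominate the sums. Batch 3 gave 3990722 of the 4193355 WT IP counts, and batch 2 gave 4085902 of the 4403297 counts of WT input RIP8 (Lars2 left out). KO IP drew on both runs (3838099 and 2464476 counts). Genotype cannot be told apart from the dominant run. With 1 library per IP group, each was assumed to vary like the inputs. None of the 10 genes passed an adjusted p of 0.05, nor did any row (0% of all rows). At an unadjusted p under 0.05 there were 33 rows (0.287%), none of them among the 10. Without adjustment DESeq2 had 31 rows under 0.05 and limma voom 193, and 0 rows passed in either after it. Of the 10, 8 lay above 0, against 50.8% of all rows, with a median log2 value of 0.27 against 0.01. Nfatc2 had 1.34 ± 0.95 (SE), Irf4 0.59 ± 0.96 and Irf8 0.43 ± 0.96. On the other side were Runx3 with −0.86 ± 1.08 and Zeb2 with −1.63 ± 1.91. The adjusted p was 1.00 for each of the 10. In the batch 2 runs alone Nfatc2, Irf4, Prdm1 and Runx3 fell on the other side of 0. With the other run of each library Tcf7, Tbx21, Irf8 and Eomes did so, 0 of 9 tested members passed, and 6.77% of all rows did. Of the 10, Zeb2 alone kept its side of 0 under all 14 alternatives (−4.21 to −1.10), on 35 counts in KO IP and 58 in WT IP. Several of the 14 could hardly move it. Leaving out an input library gave −1.63 each time, as did a fit with the experiment as a block. The share of all rows that kept their side was not counted.

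The comparison of KO input with WT input asks whether the mRNA levels differ between the genotypes. None of the 10 genes passed (0% of all rows; 1 of the 10, Batf, and 5.22% of all rows had an unadjusted p under 0.05). In all, 3 lay above 0, against 45.7% of all rows, with a median of −0.26 against −0.10. Batf had −2.70 ± 1.12 (adjusted p = 0.953), on 1 count in each KO input library against 4 and 125 in the WT input libraries. Irf8 had −1.02 ± 0.70, Tcf7 −0.57 ± 0.72 and Irf4 0.49 ± 0.69, each with an adjusted p of 0.996. Without the library labelled WT input D1, Batf had −2.94, Irf8 −1.45 and Zeb2 4.86. In that fit the lone WT input library is the one labelled RIP8, and without it instead Zeb2 had −0.33. Most counts of WT input RIP8 came from its deep run (4085902 of 4403297 without Lars2), whereas both KO inputs are shallow. Genotype therefore cannot be told apart from depth class in the fit without WT input D1. With the other run of each library, where every input run is shallow, Irf8 had −0.29 and Zeb2 0.72, and Batf was not among the rows tested.

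The comparison of WT IP with WT input asks what the antibody brings down from wild-type cells. None of the 10 passed (0% of all rows; 0 of the 10 and 7.64% of all rows at an unadjusted p under 0.05). Here 7 lay above 0, against 47.3% of all rows, with a median of 0.50 against −0.10. Runx3 had 1.57 ± 0.89 (adjusted p = 0.650), and Nfatc2 −1.72 ± 0.88 (0.638). Irf4 had −1.01 ± 0.87 (0.712), Zeb2 1.18 ± 1.87 and Tcf7 0.76 ± 0.84. Runx3 and Nfatc2 kept their direction under all 14 alternatives, with ranges of 0.18 to 1.77 and −2.24 to −0.56. Several of the 14 could hardly move them, because KO libraries are not part of this comparison. Leaving out either KO input library gave Runx3 1.56 each time, and Nfatc2 hardly changed. The share of all rows that kept their direction was not counted.

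Calls in this comparison depended on single libraries and runs. Without WT input RIP8 or D1, only the KO inputs gave a spread, and the common dispersion fell to 0.0792 or 0.0752, from 0.281. With the experiment as a block, 4.66% of all rows passed and 0 of the 10. Without the library labelled WT input RIP8, Runx3 (1.47, adjusted p = 0.0281) and Nfatc2 (−1.58, 0.0343) passed, with 34.5% of all rows. Without WT input D1, Nfatc2 (−1.93, 0.0224) and Zeb2 (4.67, 7.97e-04) passed, with 9.14% of all rows. With the other run of each library, which leaves WT IP D1 batch 3 as the IP, 4 passed, with 47.6% of all rows: Runx3 (1.69, 0.00290), Irf8 (1.53, 0.0137), Nfatc2 (−1.93, 0.0162) and Tcf7 (1.21, 0.0398). A share of 4 in 9 tested is near that of all rows. In the batch 2 runs alone, where the IP run is the one closest to both D1 inputs, Runx3 had 0.18 and Nfatc2 −0.56, and 7 of the other genes fell on the other side of 0. Poly(A) selection and PCR cycles differed between IP and input and cannot be told apart from the precipitation. With the other run of each library, the WT IP run was deep (1.16% Lars2) and every input run shallow (34.8% to 50.1%). Depth class therefore cannot be told apart from precipitation in that setting, for these or any other genes. The same holds for the fit without WT input RIP8. There most WT IP counts came from the deep run of batch 3 (3990722 of 4193355 without Lars2), and WT input D1, the lone WT input, was shallow (47.2% Lars2).

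The difference between the IP over input ratio in KO and that in WT asks whether precipitation depends on CPEB4. None of the 10 passed (0% of all rows, with 1.08% at an unadjusted p under 0.05 and 0 of the 10), and 8 lay above 0, against 58.5% of all rows, with a median of 0.56 against 0.27. Batf had 2.84 ± 1.56, which rests on its single counts in the KO inputs. Zeb2 had −3.07 ± 2.62, Irf8 1.45 ± 1.19, Nfatc2 1.37 ± 1.16, Runx3 −1.02 ± 1.31 and Tcf7 0.87 ± 1.23. Without WT input D1, Zeb2 had −6.49, and without KO input D1 it turned to 6.06. The fitted size in both has no meaning as a fold, since single libraries held 0 to 3 Zeb2 counts. Without WT input D1, the lone WT input was mostly a deep run and both KO inputs were shallow, so genotype cannot be told apart from depth class.

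**Figure D4:**
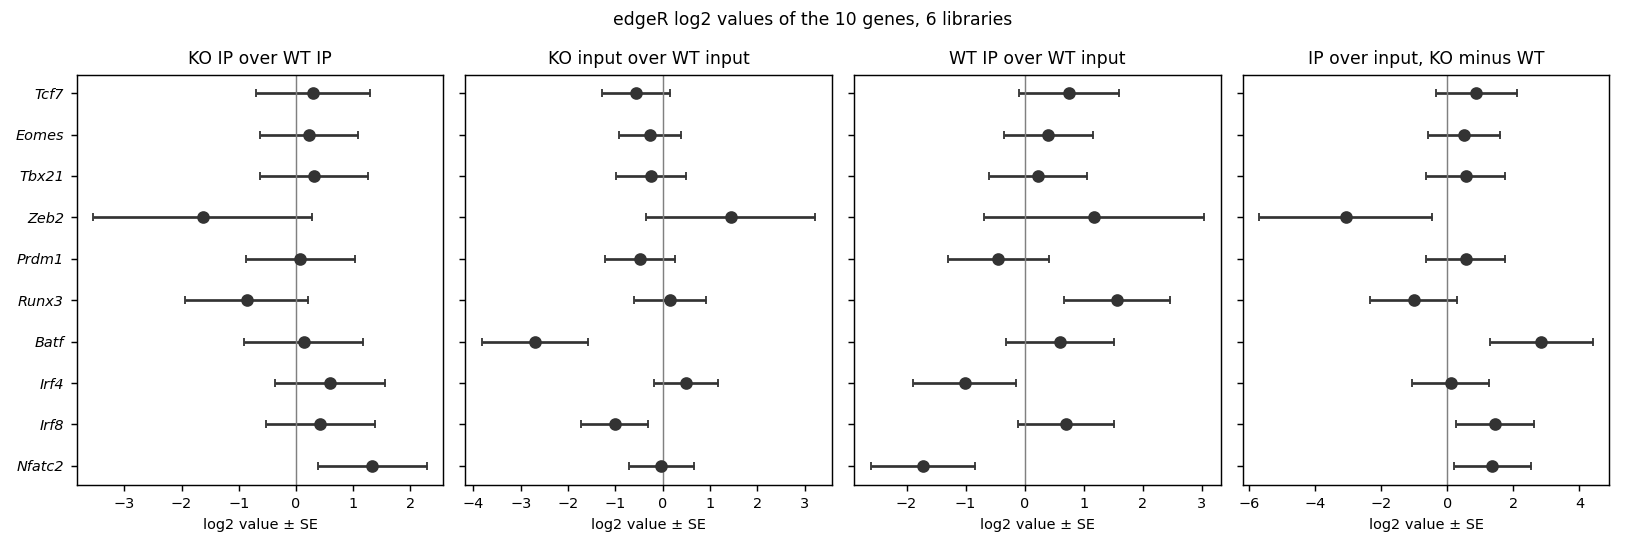
Log2 value (x axis) of each gene (y axis) in the 4 comparisons, from edgeR on 6 libraries, with bars of 1 SE. The bars of Runx3 and Nfatc2 in WT IP over WT input, of Batf and Irf8 in KO input over WT input and of Nfatc2 in KO IP over WT IP are among those clear of 0, but no gene passed the threshold.

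**Figure D5:**
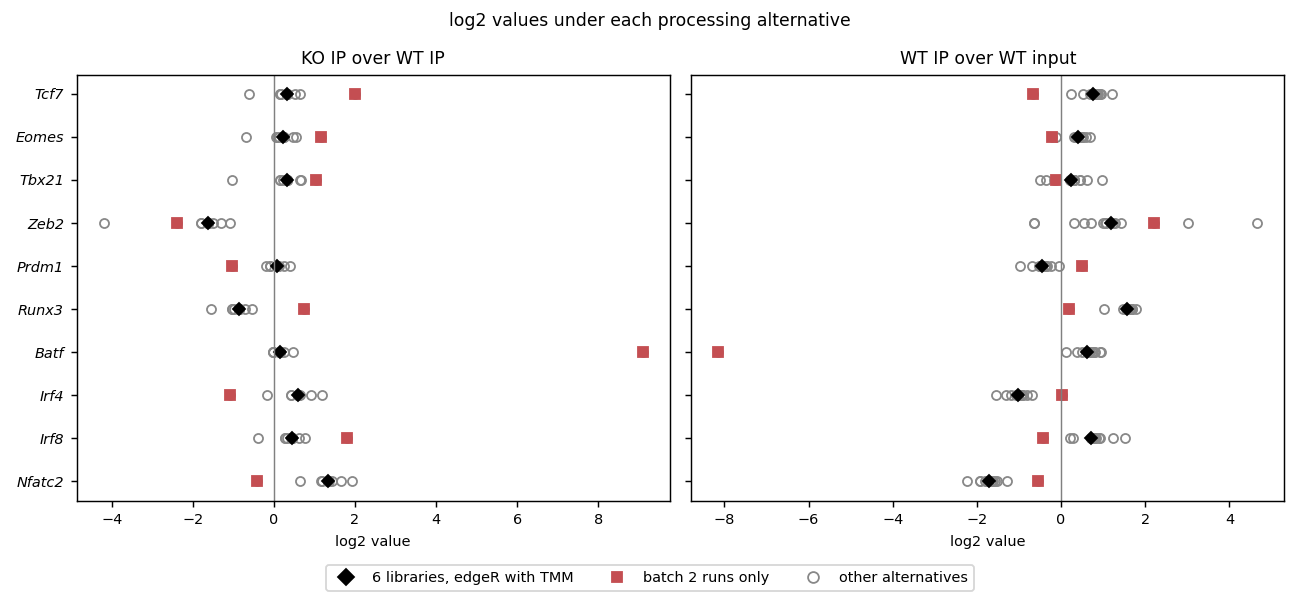
Log2 value (x axis) of each gene (y axis) in 2 comparisons under every processing alternative, with the 6-library edgeR value as a black diamond and the batch 2 runs alone as a red square. Most squares lie apart from the other points and often on the far side of 0; the distant Batf squares come from a WT IP run with 0 counts.

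Among other transcription factors of the T cell programme, calls also appeared only under alternatives. Of 42 listed, 36 had a named row, and all 36 were tested. Of all rows, 50.8%, 45.7%, 47.3% and 58.5% lay above 0 in the 4 comparisons, in the order below. At an unadjusted p under 0.05 in edgeR there were 0, 0, 4 and 0 of the 36, against 0.287%, 5.22%, 7.64% and 1.08% of all rows. In KO IP over WT IP 0 passed, 15 lay above 0 and 21 below, and the smallest p belonged to Gata3, a type 2 helper factor (−1.31 ± 0.95), Id3, an inhibitor of E proteins (2.49 ± 2.34, 12 counts in KO IP and 1 in WT IP), and Klf2, a factor of naive cell traffic (−0.999 ± 0.96). In KO input over WT input 0 passed, with 16 above 0 and 20 below, led by Klf3 (1.24 ± 0.89), the AP-1 gene Jund (−0.96 ± 0.71) and Tox (−1.15 ± 1.00, on 1 to 6 counts in 3 of 4 inputs). In WT IP over WT input 0 passed, with 24 above 0 and 12 below, led by Gata3 (2.73 ± 0.79, adjusted p = 0.579), Klf2 (2.05 ± 0.80, 0.637) and Stat4, which relays IL-12 signals (1.76 ± 0.76, 0.637). In the difference of ratios 0 passed, with 17 above 0 and 19 below, led by Klf3 (−1.81 ± 1.42), Cbfb, the partner subunit of RUNX3 (1.38 ± 1.16), and Irf1 (−1.90 ± 1.93).

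With the experiment as a block, Gata3 passed in WT IP over WT input at 3.30 (adjusted p = 0.0141), and 4.66% of all rows did. Gata3 also passed there with the other run of each library (3.42, 3.26e-04), without WT input D1 (2.38, 0.00462) and without WT input RIP8 (3.16, 1.42e-04). Klf2 passed in the last 3 of these settings, at 2.07 (0.00471), 2.09 (0.0165) and 1.88 (0.0144). Stat4 passed with the other run (2.85, 0.00211) and without WT input RIP8 (2.09, 0.0108). The shares of all rows that passed in these settings were those given above, 47.6%, 9.14% and 34.5%. In KO IP over WT IP, Gata3 (−2.54, 0.0292) and Klf2 (−2.49, 0.0348) passed with the other run of each library, with 6.77% of all rows. Both turned to the other side of 0 in the batch 2 runs, at 2.04 and 1.85. For the calls in WT IP over WT input, depth class cannot be told apart from precipitation with the other run of each library or without WT input RIP8. Without WT input D1, Klf3 passed in KO input over WT input (2.00, 0.0228, with 20.2% of all rows) and Irf1 in the difference of ratios (−5.64, 4.16e-06, with 10.2%).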

How the data were processed

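The authors deposited raw read counts per 3′ UTR, with 1 column per sequencing run and no pooling of runs. Per the submitters' processing notes, the tools were featureCounts, R 3.5.1, Bowtie2 2.2.2 and Bowtie 1.2.3, with the mm10 build. What each aligner did, the annotation, the use of strand and how multiply matching reads were counted were not given in the sources used here. Each column was assigned to its sample by name. Rows carry a transcript and a UTR start but no symbol or chromosome, so symbols were looked up by position in RefSeq's GRCm38 genes: 3814 UTR starts equalled a gene start (6 after a shift of 1000000 bases), 3809 of them on the chromosome of their stretch of rows, from which the chromosome of a row was taken, and 17707 rows fell in a single gene, of which 16117 stood in falling alphabetical order and were kept. Among adjacent rows that name the same start (more than 20 counts in sum), 25 of 49 were identical in the first 9 columns and 0 of 60 in the last 11, whose rank correlation with the first 9 was −0.0131 to −0.00164 in 99 pairs; these 11 columns were not used for any level.

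Levels are counts per 1000000 without the Lars2 row, with 95% Poisson intervals that cover counting error only. Runs of a library were summed and tested with edgeR 4.0.16 in R 4.3.3 (TMM factors, filterByExpr with a minimum count of 10, group means, quasi-likelihood F test, Benjamini-Hochberg adjustment); the fit had 2 residual degrees of freedom, and each SE is the log2 value over the square root of F, so it restates the test. DESeq2 1.42.0 and limma 3.58.1 (voom) were alternatives. The edgeR step was run on simulated counts whose spread was set far below that of these data (common dispersion 0.281). That run therefore does not measure the power of the test here. The members, the gene lists and the rule for named genes (all 10 members, the 3 other transcription factors with the smallest p where none passed, the 3 rows most alike for the 3 best-covered members) were chosen with earlier results of these data known, and the within-run ratios were chosen after their values were seen.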

Additional observations from a re-analysis of the deposited data

How the results depend on the processing

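In the 6-library edgeR fit 0 rows were called in each of the 4 comparisons (33, 600, 878 and 124 at an unadjusted p under 0.05), and this count moved with the processing. In KO IP over WT IP it was 537 with the other run of each library. In KO input over WT input it was 24 with DESeq2, 84 with no filter on low counts and 2 with the replicate block. In WT IP over WT input it was 43 with DESeq2, 94 with no filter, 536 with the replicate block and 3774 from the other run of each library. Leaving out 1 input library at a time gave 0 to 22 calls in KO IP over WT IP, 0 to 2343 in KO input over WT input, 0 to 2639 in WT IP over WT input and 0 to 1186 in the difference of ratios. The labels do not say that D1 or RIP8 marks a shared origin, and there are 2 pairs. The deviations of KO input and WT input, D1 minus RIP8, correlated at 0.193 over 11496 rows. Shallow KO and WT input runs of the same experiment differed less (chi-square per degree of freedom 1.12 and 1.39) than those across experiments (4.28 and 4.95). The block lowered the common dispersion to 0.154, against 0.281 without it, and passed 0 of the 10 genes. Without TMM factors the median of all rows moved to 0.34 from 0.01 in KO IP over WT IP and to −0.61 from −0.10 in WT IP over WT input.

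Values that changed direction are these. In KO IP over WT IP, the batch 2 runs alone gave Runx3 0.73, Irf4 −1.10, Nfatc2 −0.43, Prdm1 −1.04, Gata3 2.04 and Klf2 1.85; the other run of each library gave Tcf7 −0.61, Tbx21 −1.04, Irf8 −0.40 and Eomes −0.70. DESeq2 gave Batf −0.032 and Prdm1 −0.095, no filter Batf −0.035 and Prdm1 −0.099. Without the run labelled WT IP D1 batch 2 Batf had −0.037, and without KO IP D1 batch 3 Irf4 had −0.17 and Prdm1 −0.20; both settings were chosen after seeing the data. In KO input over WT input, limma voom gave Tbx21 0.17 and no TMM factors gave Nfatc2 0.032. In WT IP over WT input, the batch 2 runs gave Tcf7 −0.66, Tbx21 −0.11, Batf −8.14 (a run with 0 counts), Irf4 0.020, Irf8 −0.42, Prdm1 0.49, Eomes −0.22, Gata3 −0.27, Klf2 −0.36 and Stat4 −0.37. No TMM factors gave Tbx21 −0.35 and Eomes −0.12, and the replicate block gave Tbx21 −0.17 and Zeb2 −0.64. In the difference of ratios, the batch 2 runs gave Runx3 0.57, Irf4 −1.61, Nfatc2 −0.41 and Prdm1 −0.57; the other run of each library gave Tcf7 −0.40, Tbx21 −0.95, Irf8 −0.11 and Eomes −0.63; DESeq2 gave Irf4 −0.062, and Irf4 had −0.64 without KO IP D1 batch 3. Over the fits that leave out 1 input library, KO input over WT input ran from −0.89 to 0.51 for Tbx21, −0.029 to 0.86 for Irf4, −0.73 to 0.43 for Nfatc2, −7.69 to 4.86 for Zeb2 and −1.38 to 0.032 for Prdm1. WT IP over WT input ran from −0.49 to 0.98 for Tbx21 and −0.64 to 4.67 for Zeb2. The difference of ratios ran from −0.19 to 1.21 for Tbx21, −0.27 to 0.62 for Irf4 and −6.49 to 6.06 for Zeb2. The cause was not tested. Levels with the Lars2 row kept in the totals lay outside their Poisson interval in 37 of 90 cases, and those divided by TMM factors in 13 of 90. The 5 shallow runs, with 192134 to 317395 counts, limit Zeb2, Batf, Prdm1 and Tbx21 most.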
